A study of Oryza sativa with 18 samples.

Results

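The circadian clock of rice was represented here by 8 genes, OsLHY (Os08g0157600), OsPRR73 (Os03g0284100), OsPRR37 (Os07g0695100), OsPRR95 (Os09g0532400), OsPRR59 (Os11g0157600), OsPRR1 (Os02g0618200), OsGI (Os01g0182600) and OsELF3 (Os06g0142600). Each was matched by its name to 1 locus, so that 8 of the 34716 loci in the expression table are described. The 8 genes were chosen with earlier results of these data known. The study asked how rice responds to a lack of zinc (Zn) and to its return. Poly(A) RNA of Nipponbare rice, a japonica cultivar, was sequenced in 18 libraries, 3 biological replicates for each of 6 groups. Each library came from 3 pooled seedlings, which were about 4 weeks old after the 2 weeks of treatment. Seedlings were first grown in water. The groups ZPS (shoots, that is leaf and stem) and ZPR (whole roots) then had nutrient solution with 1.5 µM ZnSO4 until harvest. The groups ZMS (shoots) and ZMR (roots) had that solution for 1 week and were then kept without ZnSO4 for 2 weeks. The groups ZRS (shoots) and ZRR (roots) went through the same 2 weeks and then spent 3 days back at 1.5 µM ZnSO4, so resupply cannot be told apart from those 3 days of growth or from a separate harvest. All plants had 16 h of light and 8 h of dark a day and were harvested 4 h after illumination began, so every value below belongs to a single time of day, and neither the phase nor the amplitude of a rhythm was measured.

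The plant clock is a loop of genes that repress each other in turn over the day. LHY, a MYB-type transcription factor of the morning, represses genes of the evening, and the pseudo-response regulators (PRRs), which follow one after another from morning to evening, repress LHY in their turn. GI and the evening complex, of which ELF3 is a part, act late in the day, and through these genes rice measures day length and sets its heading date. The order of the loop is known mainly from Arabidopsis.

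Expression is given as FPKM of the whole locus, a count of fragments scaled by the exonic length of the locus and by library size. A log2 fold change is a difference of log2(FPKM + 0.5), a scale on which the changes of weakly expressed genes come out too small. Tests were made with limma, p-values were adjusted over all tested loci by the method of Benjamini and Hochberg, and a locus was called where the log2 fold change was at least 1 in either direction with an adjusted p of at most 0.05. All 8 genes passed the filter of 0.5 FPKM in 3 libraries in both tissues, and the lowest value of any of them in any library was 1.49 FPKM.

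Depth was between 3.67 (ZRR 3) and 7.75 (ZMS 3) reads per base for each FPKM. The mean coverage of a clock gene in a library was lowest for OsPRR1, at 10.3 to 55.0 reads per base, and highest for OsLHY, at 1011 to 5926. The tissue labels were checked with marker loci. The 8 loci of green tissue markers (Rubisco small subunit and light-harvesting proteins) summed to between 2868 and 6163 FPKM in a shoot library and to between 73.9 and 236 FPKM in a root library. The 7 loci of root markers summed to between 747 and 2388 FPKM in roots against 4.12 to 16.7 FPKM in shoots. The root markers RCc3 and NRT2.1 were at 0 in all 9 shoot libraries, but both also reached 0 among the root libraries. Their root means were 5.11 ± 7.76 FPKM (SD, n = 9) for RCc3 and 31.6 ± 94.8 FPKM for NRT2.1. The mean of NRT2.1 came almost wholly from 1 root library, at 284 FPKM. The largest root means among the root marker loci were those of Lsi1 (837 FPKM) and of an Lsi2 locus (824 FPKM). AMT1;2, chosen as a root marker, was at 0 in all 9 root libraries. In the resupplied shoot library ZRS 1, 16.8% of the isoform FPKM lay in transcripts coded as intronic, run-on or intergenic, against 1.79% to 5.14% in the other 17 libraries. The calls for zinc supply in shoots were also made without this library. The correlations of deviations within groups were not.

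The morning gene OsLHY was by far the most abundant of the 8, and its level was above that of 99.9% of the tested loci in shoots and 99.6% in roots. It lies on chromosome 8 of the IRGSP-1.0 genome, plus strand, at 3360750 to 3374081. In shoots it was at 760, 662 and 605 FPKM in the ZPS libraries, 727, 606 and 598 FPKM in ZMS, and 615, 629 and 861 FPKM in ZRS. In roots it was at 284, 300 and 282 FPKM in ZPR, 234, 289 and 275 FPKM in ZMR, and 325, 326 and 276 FPKM in ZRR. All 9 root libraries were thus below all 9 shoot libraries, with means of 288 ± 27.8 FPKM (SD, n = 9) in roots and 674 ± 90.9 FPKM in shoots. Within a tissue the ranges of the 3 zinc supplies overlapped.

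Of the PRR genes, OsPRR73 and OsPRR37 are the closest to each other in sequence, and OsPRR37 is known in rice as a repressor of heading in long days. The OsPRR73 locus (chromosome 3, minus strand, 9759249 to 9768716) was merged in the deposited table with Os03g0284200, annotated there as a non-protein-coding transcript, whose own isoform was at 0 in 17 of the 18 libraries. OsPRR73 was at 65.1, 42.9 and 48.5 FPKM in ZPS, 68.0, 35.2 and 47.3 FPKM in ZMS and 61.0, 45.5 and 66.1 FPKM in ZRS. The root values were 24.1, 20.3 and 18.9 FPKM in ZPR, 23.6, 23.5 and 23.8 FPKM in ZMR and 26.9, 17.1 and 22.2 FPKM in ZRR. The root libraries all lay below the shoot libraries, and the coefficient of variation ran from 0.824% in ZMR to 33.1% in ZMS. It was higher in shoots than in roots at +Zn and -Zn, and higher in roots after resupply, at 22.0% in ZRR against 18.6% in ZRS.

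OsPRR37 (chromosome 7, plus strand, 29616663 to 29629251) was lower than OsPRR73 in every group. It was at 18.9, 14.5 and 15.8 FPKM in ZPS, 20.3, 11.9 and 13.4 FPKM in ZMS and 13.4, 13.9 and 15.1 FPKM in ZRS. Root libraries gave 9.06, 5.84 and 5.40 FPKM in ZPR, 8.73, 6.84 and 7.74 FPKM in ZMR and 7.80, 7.93 and 12.6 FPKM in ZRR. Only the library ZRR 3, the shallowest of all, reached into the range of the shoots, whose lowest value was 11.9 FPKM. OsPRR37 and OsPRR73 can share reads where their sequences match, since several alignments of a read were allowed, and the extent of this was not tested.

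OsPRR95 and OsPRR59 are a further pair of rice pseudo-response regulators, named for their likeness to PRR9 and PRR5 of Arabidopsis, which act by day. They went opposite ways between the tissues. OsPRR95 (chromosome 9, minus strand, 20885140 to 20889834) was at 42.7, 39.7 and 42.6 FPKM in ZPS, 43.2, 41.0 and 40.3 FPKM in ZMS and 37.7, 38.0 and 60.1 FPKM in ZRS. Its root values were 8.10, 9.12 and 9.25 FPKM in ZPR, 8.54, 12.9 and 13.6 FPKM in ZMR and 9.38, 11.2 and 8.83 FPKM in ZRR. The mean over the 9 shoot libraries was 4.24 times that over the 9 root libraries, the widest gap between tissues among the 8 genes, and the ranges did not meet.

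OsPRR59 (chromosome 11, plus strand, 2789011 to 2793728) was at 6.23, 8.36 and 9.5 FPKM in ZPS, 7.06, 7.23 and 8.49 FPKM in ZMS and 5.68, 8.38 and 10.2 FPKM in ZRS. Root libraries had more of it, at 12.6, 15.5 and 14.2 FPKM in ZPR, 10.7, 15.0 and 16.2 FPKM in ZMR and 14.5, 14.5 and 14.2 FPKM in ZRR. Every root library was above every shoot library, the highest shoot library being ZRS 3 at 10.2 FPKM and the lowest root library ZMR 1 at 10.7 FPKM.

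OsPRR1, the rice counterpart of the Arabidopsis evening gene TOC1, was the lowest of the 8 in every group. It lies on chromosome 2, plus strand, at 24569489 to 24572391. It was at 3.73, 2.54 and 6.0 FPKM in ZPS, 1.49, 6.81 and 2.61 FPKM in ZMS and 2.43, 2.77 and 2.20 FPKM in ZRS. In roots it was at 8.43, 5.12 and 4.18 FPKM in ZPR, 8.69, 4.40 and 4.03 FPKM in ZMR and 6.89, 3.58 and 3.98 FPKM in ZRR. Its libraries were the most scattered of all, with a coefficient of variation of 77.2% in ZMS, and the tissues overlapped.

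OsGI, which in rice acts on the flowering regulator Hd1, was the second gene in locus FPKM in every group. It lies on chromosome 1, minus strand, at 4329303 to 4338517. It was at 60.7, 51.0 and 64.0 FPKM in ZPS, 61.4, 47.9 and 61.2 FPKM in ZMS and 47.0, 49.4 and 79.7 FPKM in ZRS. The root libraries were at 83.2, 92.4 and 67.6 FPKM in ZPR, 76.7, 84.2 and 88.6 FPKM in ZMR and 85.5, 79.2 and 76.3 FPKM in ZRR. Apart from ZRS 3, the shoot libraries were all below the lowest root library.

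OsELF3, a member of the evening complex and known in rice as the heading date gene Hd17, lies on chromosome 6, minus strand, at 2234581 to 2239058. It was at 12.7, 13.6 and 16.2 FPKM in ZPS, 11.5, 13.4 and 14.1 FPKM in ZMS and 8.81, 14.1 and 17.6 FPKM in ZRS. In roots it was at 7.45, 11.6 and 10.7 FPKM in ZPR, 6.29, 11.2 and 9.49 FPKM in ZMR and 8.71, 10.6 and 6.24 FPKM in ZRR. The tissues overlapped, and the lowest shoot library was ZRS 1.

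**Figure D1:**
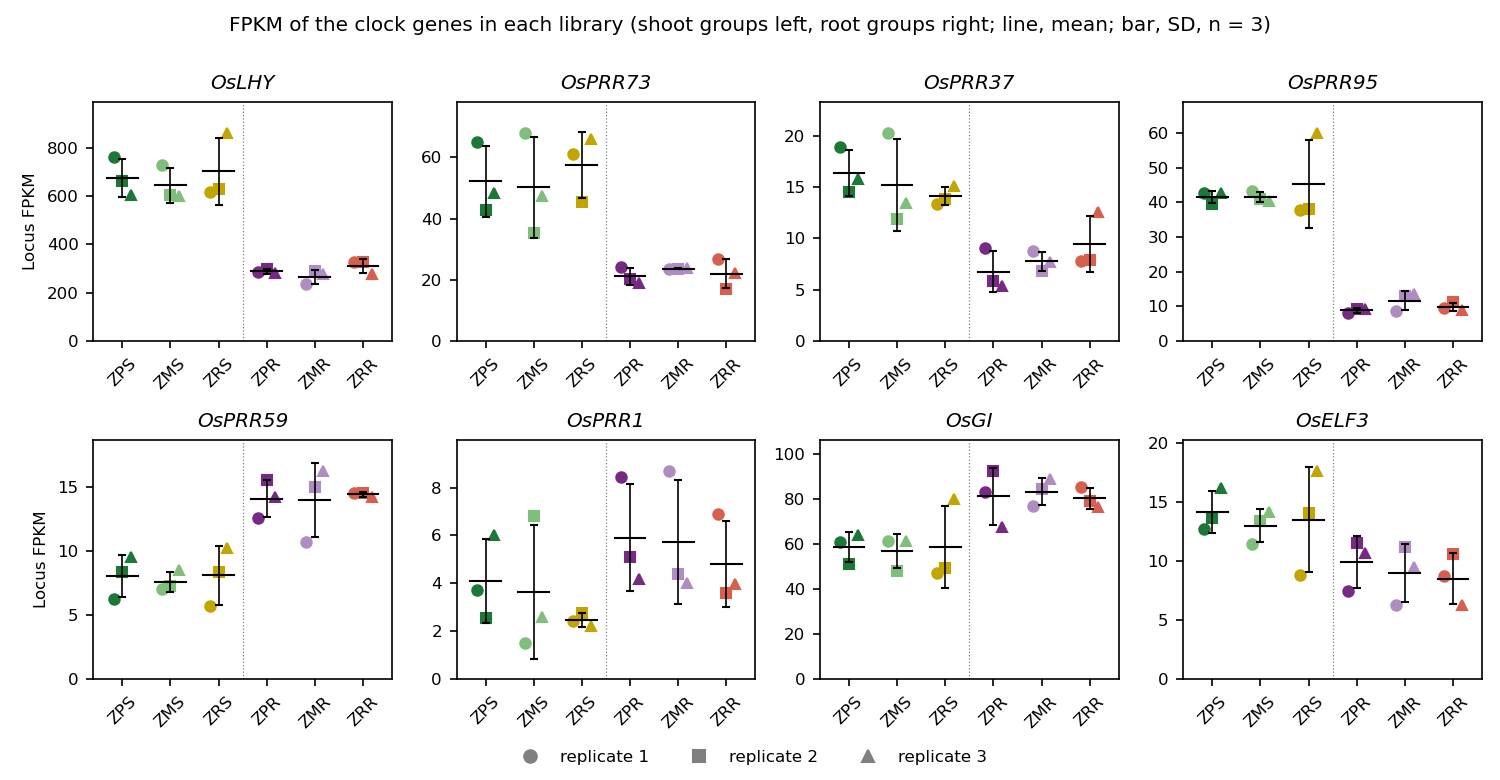
Locus FPKM (vertical axes, each from 0) of the 8 clock genes in the 18 libraries, by group, with points for single libraries, a line for the group mean and a bar for the SD (n = 3). OsLHY, OsPRR73 and OsPRR95 sit lower in all 9 root libraries, OsPRR59 sits higher in all 9, and the groups of different zinc supply overlap within each tissue.

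FPKM of a locus is scaled by its exonic length, so an order of the genes within a group holds for that measure only. This length was 6384 bases for OsPRR73, whose summed isoform FPKM was 1.58 to 1.79 times its locus FPKM. That ratio was 1.36 to 1.41 for OsPRR37, 1.09 to 1.11 for OsGI and 1 for OsELF3. The places of OsPRR73 and OsPRR37 against OsGI and OsELF3 thus depend on the length used. In all 3 shoot groups the order of the means was OsLHY, OsGI, OsPRR73, OsPRR95, OsPRR37, OsELF3, OsPRR59 and OsPRR1. The ranges of OsGI and OsPRR73 overlapped in each of them, as did those of OsPRR37 and OsELF3. Those of OsPRR73 and OsPRR95 overlapped in ZMS and ZRS, and those of OsELF3 and OsPRR59 in ZRS. In locus FPKM these neighbours thus did not differ beyond their spread in those groups. In roots OsLHY, OsGI and OsPRR73 held the leading places with no overlap between neighbours, and OsPRR59 came next in all 3 root groups, with a range that met that of OsPRR95 in ZMR. OsPRR95, OsELF3 and OsPRR37 changed places among the root groups, with ranges that overlapped between neighbours. In locus FPKM the difference between OsGI and OsPRR73 was therefore wide in roots, 81.1 against 21.1 in ZPR. It was narrow in shoots, 58.6 against 52.2 in ZPS.

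The root and shoot libraries were compared at each zinc supply in 1 fit of all 18 libraries. In the +Zn plants (ZPR/ZPS) 4 of the 8 genes were called lower in roots and none higher, beside 13.5% of all tested loci called lower, 20.5% called higher and 34.1% called in either direction. In the -Zn plants (ZMR/ZMS) 3 were called lower and none higher, beside 13.4% lower, 18.5% higher and 31.9% in either direction. In the resupplied plants (ZRR/ZRS) 3 were again called lower and none higher, beside 11.8% lower, 27.6% higher and 39.4% in either direction. The genes with no overlap between the 9 shoot and 9 root libraries numbered 4 of 8, beside 35.8% of all tested loci. Roots and shoots are made of different cells, and fewer cells of a type and less RNA per cell cannot be told apart in whole organs. The sums of the green and root marker loci given above moved with each of these differences, and their part in them was not tested.

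OsLHY was lower in roots by log2 fold changes of -1.22 (ZPR/ZPS), -1.27 (ZMR/ZMS) and -1.17 (ZRR/ZRS), with a standard error of 0.20 in each and adjusted p-values (limma) of 0.000137, 9.73e-05 and 0.000202. OsPRR73 was lower by -1.27, -1.02 and -1.37 with a standard error of 0.24 (limma adjusted p = 0.000497, 0.00295 and 0.000257). OsPRR95 was lower by -2.18, -1.81 and -2.12 with a standard error of 0.19 (limma adjusted p = 2.52e-07, 1.91e-06 and 3.78e-07). These 3 genes were called at every zinc supply, and OsPRR95 kept its call under all 29 alternative settings at each of them. OsLHY lost its call in ZRR/ZRS under quantile normalization and with only the 6 libraries compared in the fit (limma adjusted p = 0.0579). OsPRR73 lost its call in ZMR/ZMS with array weights, at -0.92, without ZMS 1, and without the replicates numbered 1 in every group.

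OsPRR37 was called in ZPR/ZPS alone, at -1.24 ± 0.24 (SE; limma adjusted p = 0.000520). In ZMR/ZMS and ZRR/ZRS its values were -0.89 and -0.59 (limma adjusted p = 0.00638 and 0.0459), short of the fold threshold. Under quantile normalization these became -1.10 and -1.09, and both were then called. OsPRR59 was at 0.79, 0.82 and 0.83 in the same order, with a standard error of 0.21 and adjusted p-values (limma) of 0.00671, 0.00540 and 0.00416, and it too stayed below the fold threshold. OsGI was at 0.46, 0.55 and 0.49 (limma adjusted p = 0.0714, 0.0355 and 0.0491).

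OsPRR1 and OsELF3 did not reach an adjusted p of 0.05 at any zinc supply. OsPRR1 was at 0.50, 0.73 and 0.79, with 95% confidence intervals from -0.45 to 1.44 in ZPR/ZPS and from -0.15 to 1.74 in ZRR/ZRS. OsELF3 was at -0.51, -0.54 and -0.61, with intervals from -1.09 to 0.07 in ZPR/ZPS and from -1.19 to -0.04 in ZRR/ZRS. Neither gene can therefore be said to be alike in the 2 tissues.

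The scale of the FPKM values bears on these directions. The median log2 fold change of all tested loci was 0.38 in ZPR/ZPS, 0.36 in ZMR/ZMS and 0.58 in ZRR/ZRS, and upper-quartile scaling lowered these medians to 0.17, 0.16 and 0.20. The split of the calls moved with it. With upper-quartile scaling the share of higher loci among all those called fell from 60.2% to 50.4% in ZPR/ZPS, from 58.1% to 49.3% in ZMR/ZMS and from 70.1% to 51.3% in ZRR/ZRS. Relative to those medians, OsGI at 0.46 in ZPR/ZPS stood a little above 0.38, and at 0.49 in ZRR/ZRS it stood below 0.58. Upper-quartile scaling put OsGI in ZRR/ZRS at -0.02 (limma adjusted p = 0.967), so its direction there turned with the scaling. OsPRR59 was at 0.53, 0.59 and 0.35 with upper-quartile scaling, the last with a limma adjusted p of 0.137. OsELF3 was called lower in ZRR/ZRS under upper-quartile scaling, at -1.10 (limma adjusted p = 0.00252). OsLHY in ZRR/ZRS was at -0.80 under quantile normalization, short of the fold threshold, and at -1.68 under upper-quartile scaling. OsPRR95 and OsPRR73 kept their direction and their calls under both.

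Some of these calls rested on 1 library. In ZMR/ZMS, OsPRR73 fell short of the fold threshold without ZMS 1, at -0.77 (limma adjusted p = 0.0182). Without ZMS 2, OsPRR1 was at 1.24 (limma adjusted p = 0.0249) and OsPRR37 at -1.05 (limma adjusted p = 0.00535), and both were called. Without the replicates numbered 1 in every group, a setting added after the data were seen, OsPRR1 in ZMR/ZMS was at -0.02. In ZRR/ZRS, OsPRR59 was at 1.01 and was called without ZRS 3 (limma adjusted p = 0.00204).

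**Figure D2:**
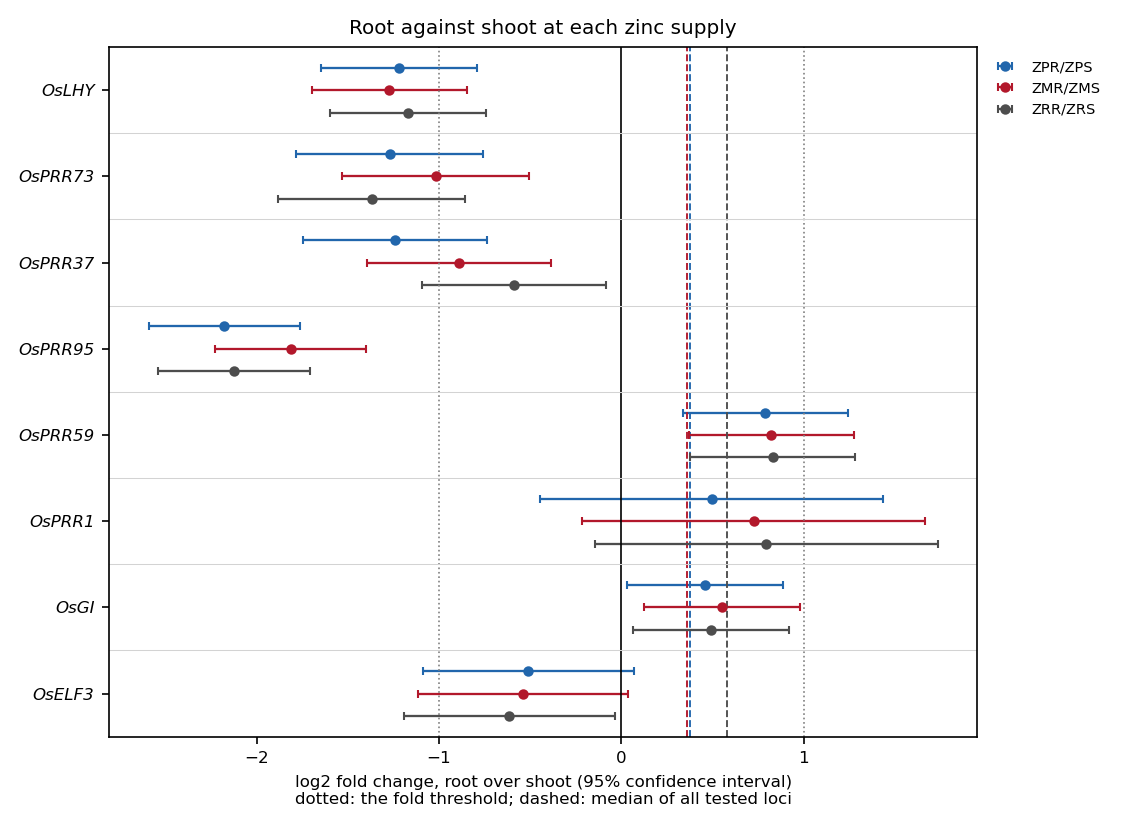
Log2 fold change of the clock genes in roots over shoots (horizontal axis) at 3 zinc supplies, with 95% confidence intervals from limma, dotted lines at the fold threshold and dashed lines at the median of all tested loci. OsPRR95 lies farthest from 0, near -2, and OsPRR59, OsPRR1 and OsGI lie to the right of 0.

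Zinc supply made no difference that passed the test. None of the 8 genes was called by limma in any of the 6 comparisons within a tissue. The share of all tested loci called was 0.0878% in ZMS/ZPS, 0.0683% in ZRS/ZMS and 0.0244% in ZRS/ZPS in shoots, and 0.046% in ZMR/ZPR, 0.124% in ZRR/ZMR and 0.023% in ZRR/ZPR in roots. Counts of 0 among 8 genes are near these shares. In simulated data, 6 of 50 loci given a log2 fold change of 1 were recovered in ZMS/ZPS and 5 of 50 in ZMR/ZPR. A change of that size lies at the fold threshold itself, so its estimate can fall short of a call whatever the spread. It can thus be missed. The simulated loci were drawn at random from those tested, not from the clock genes. The count of genes with an unadjusted p under 0.05 was also 0 in each comparison, and the smallest unadjusted p was 0.103, for OsPRR95 in ZMR/ZPR. No gene had 3 libraries of one group all above or all below the 3 of another in any of the 6 comparisons. Of all tested loci, 6.5% did so in ZMS/ZPS, 10.1% in ZRS/ZMS and 8.43% in ZRS/ZPS, and in roots 9.23% did so in ZMR/ZPR, 7.61% in ZRR/ZMR and 8.34% in ZRR/ZPR.

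The size of change that these data leave room for differed among the genes. In ZMS/ZPS the log2 fold changes ran from -0.30 (OsPRR1) to -0.01 (OsPRR95), and the 95% confidence interval lay within a 2-fold change either way for 7 of the 8 genes. The exception was OsPRR1, with an interval from -1.35 to 0.76. OsLHY was at -0.07 in that comparison, with an interval from -0.60 to 0.46, and OsGI was at -0.05, with an interval from -0.59 to 0.50.

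In ZMR/ZPR the values ran from -0.15 (OsELF3) to 0.36 (OsPRR95), and the interval of all 8 genes lay within a 2-fold change. OsPRR95 was at 8.82 ± 0.629 FPKM (SD, n = 3) in ZPR and 11.7 ± 2.72 FPKM in ZMR, with an interval from -0.09 to 0.81. One of its ZMR libraries, at 8.54 FPKM, lay among the ZPR libraries. OsPRR37 was the gene with the highest value in ZRR/ZPR, at 0.45 with an interval from -0.12 to 1.03, and its highest ZRR library was the shallow ZRR 3.

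After resupply the values ran from -0.27 (OsPRR1) to 0.23 (OsPRR73) in ZRS/ZMS and from -0.22 (OsPRR95) to 0.24 (OsPRR37) in ZRR/ZMR. Against the +Zn plants they ran from -0.57 (OsPRR1) to 0.14 (OsPRR73) in ZRS/ZPS and from -0.27 (OsPRR1) to 0.45 (OsPRR37) in ZRR/ZPR. The value of OsPRR1 in ZRS/ZPS was the farthest from 0 of all 48, with an interval from -1.62 to 0.49. The median of all tested loci was -0.19 in ZRS/ZMS, and it became 0.01 under quantile normalization, and the median of the 8 genes there was 0.03 with the values as deposited. The shoot library ZRS 1, with its large intronic, run-on and intergenic share, was the lowest of its group for 6 of the 8 genes, and ZRS 3 was the highest for 7 of 8. The median deviation from the group mean in ZRS 1 was -0.20 for the 8 genes and -0.18 for all tested loci. The low place of ZRS 1 was thus not particular to the clock genes. In ZRS 3 these medians were 0.33 and -0.02. Without ZRS 1 and without ZRS 3, none of the 8 genes was called in ZRS/ZMS or ZRS/ZPS.

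The response to zinc was compared between the tissues as an interaction in the fit of 18 libraries. None of the 8 genes was called for the response to -Zn, beside 0.0655% of all tested loci, and the values ran from -0.05 (OsLHY) to 0.36 (OsPRR95). None was called for the response to resupply, beside 0.106% of all tested loci, and the values ran from -0.35 (OsPRR73) to 0.30 (OsPRR37). The count with an unadjusted p under 0.05 was 0 in both. The smallest unadjusted p-values were 0.205 and 0.277, both for OsPRR95.

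**Figure D3:**
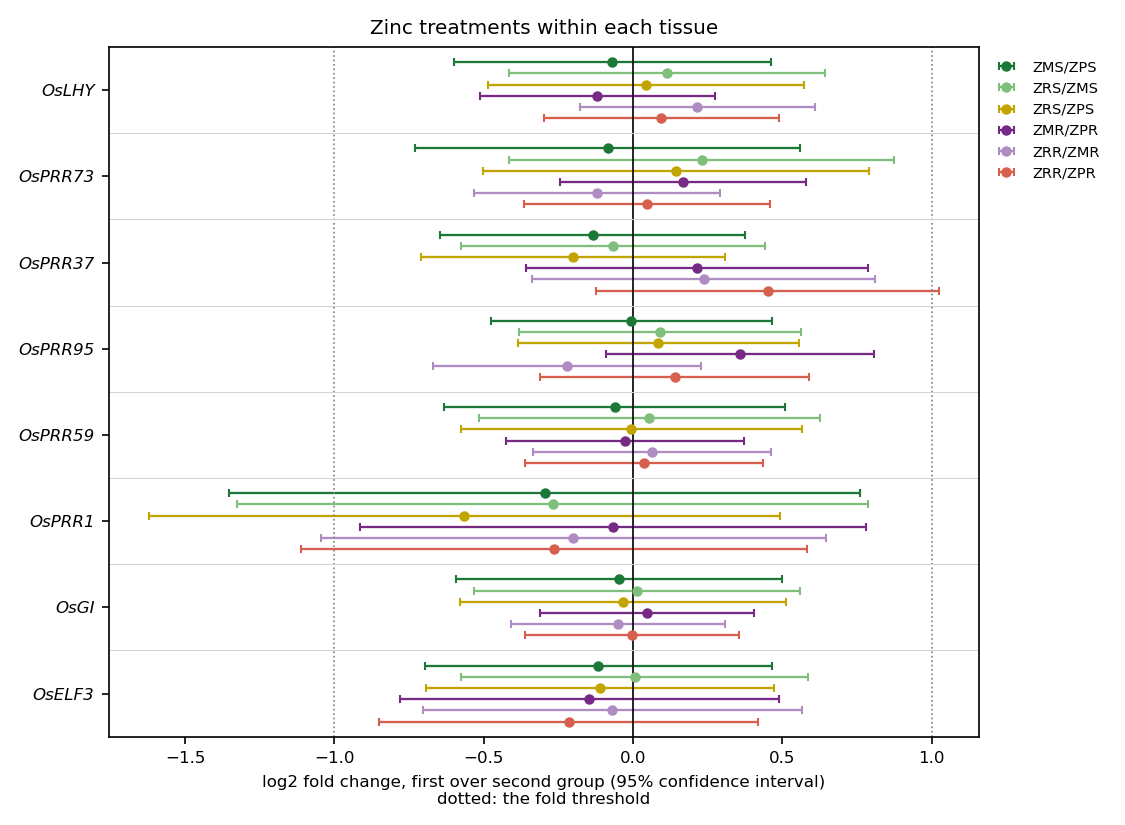
Log2 fold change of the clock genes in the 6 comparisons of zinc supply within a tissue (horizontal axis, first over second group of the legend), with 95% confidence intervals from limma and dotted lines at the fold threshold. All 48 intervals span 0, and those of OsPRR1 are the widest.

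The 8 loci held 66 isoforms in the deposited table, 22 each for OsPRR73 and OsPRR37, 9 for OsGI, 6 for OsLHY, 3 for OsPRR95, 2 for OsPRR59 and 1 each for OsPRR1 and OsELF3. Isoforms with names that begin with Os are RAP gene models, and those that begin with MSTRG were assembled from the reads and carry class code j in the file, which marks a transcript that shares a splice junction with a known model. The share of an isoform is its part of the summed isoform FPKM of its locus, given for single libraries or, as an overall share, from the mean FPKM of the 18 libraries. Such shares are estimates, made from reads that mostly fit several isoforms at once.

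For OsPRR95 the RAP models Os09t0532400-02 and Os09t0532400-01 shared most of the signal, at overall shares of 46.0% and 41.7%, and the assembled MSTRG.24967.1 had 12.4%. That assembled form took 36.2% in ZRS 3 and between 2.12% and 14.9% in the other 17 libraries. For OsPRR59 the model Os11t0157600-01 held 88.4% and MSTRG.27269.2 the remaining 11.6%, which reached 27.2% in ZRS 3. ZRS 3 was thus the library with the highest share of the assembled form of both genes.

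For OsGI the model Os01t0182600-01 held 55.0%, and its share in single libraries ran from 19.6% (ZRR 1) to 77.7% (ZMS 1). No other OsGI isoform had an overall share of 10%. For OsPRR73 the model Os03t0284100-01 and the assembled MSTRG.9154.1 each held 32.1%, and MSTRG.9154.6 held 10.4%. For OsPRR37 the model Os07t0695100-01 held 28.1% and MSTRG.21504.3 held 25.8%, and the other isoforms of the locus each had an overall share below 10%. The shares of these forms overlapped between shoots and roots.

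The shares of OsLHY fell into 2 sets of libraries, neither of which matched a tissue or a zinc supply. The RAP model Os08t0157600-01 (12 exons) took 9.22% to 12.9% in 12 libraries and 28.9% to 57.6% in the other 6, which were ZRS 2, ZPR 2, ZPR 3, ZMR 1, ZMR 2 and ZRR 1. The high set thus held 5 of the 9 root libraries and 1 of the 9 shoot libraries, a difference that was not tested. In those 6 libraries the assembled MSTRG.21820.2, also of 12 exons, was low, from 3.81% in ZRS 2 to 18.03% in ZMR 1, and it was at 25.6% or more in the remaining 12. The sum of both isoforms was between 44.7% and 61.4% in the 6 libraries and between 35.6% and 51.6% in the 12. The largest isoform, MSTRG.21820.1, held 33.2% over all libraries.

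The mix of isoforms was tested as the log2 ratio of an isoform to the rest of its locus, over 37481 isoforms and in 1 fit of 18 libraries, with 50 of the 66 clock isoforms passing the filter. By limma, none was called in ZPR/ZPS or ZMR/ZMS, beside 6.39% and 5.37% of all tested isoforms, and 2 were called in ZRR/ZRS, beside 5.41% in either direction and 2.66% higher. For zinc supply none was called in shoots, beside 0.0454% of all tested isoforms in ZMS/ZPS and 0.0374% in ZRS/ZMS, nor in roots, beside 0.0293% in ZMR/ZPR and 0.0374% in ZRR/ZMR. The isoforms called in ZRR/ZRS were both minor forms of OsPRR37, MSTRG.21504.12 at a log2 difference of 1.83 (limma adjusted p = 0.0327) and MSTRG.21504.17 at 1.55 (limma adjusted p = 0.0306).

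MSTRG.21504.12 was at 1.07, 0.287 and 1.60 FPKM in ZRR and at 0.152, 0.148 and 0.0603 FPKM in ZRS. MSTRG.21504.17 was at 1.01, 0.0779 and 0.75 FPKM in ZRR and at 0, 0.0916 and 0.0761 FPKM in ZRS. The groups of the former did not overlap, and those of the latter did. These values are close to the pseudocount of 0.5, and neither isoform was called with a pseudocount of 0.1. The ratio also takes in the rest of the locus. OsPRR37 as a whole was at -0.59 in ZRR/ZRS, and its part in these ratios was not tested. The count of called isoforms fell to 0 without ZRS 1, without ZRS 2, without ZRS 3, without ZRR 1 and without ZRR 3, each left out alone, and to 1 without ZMR 3.

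**Figure D4:**
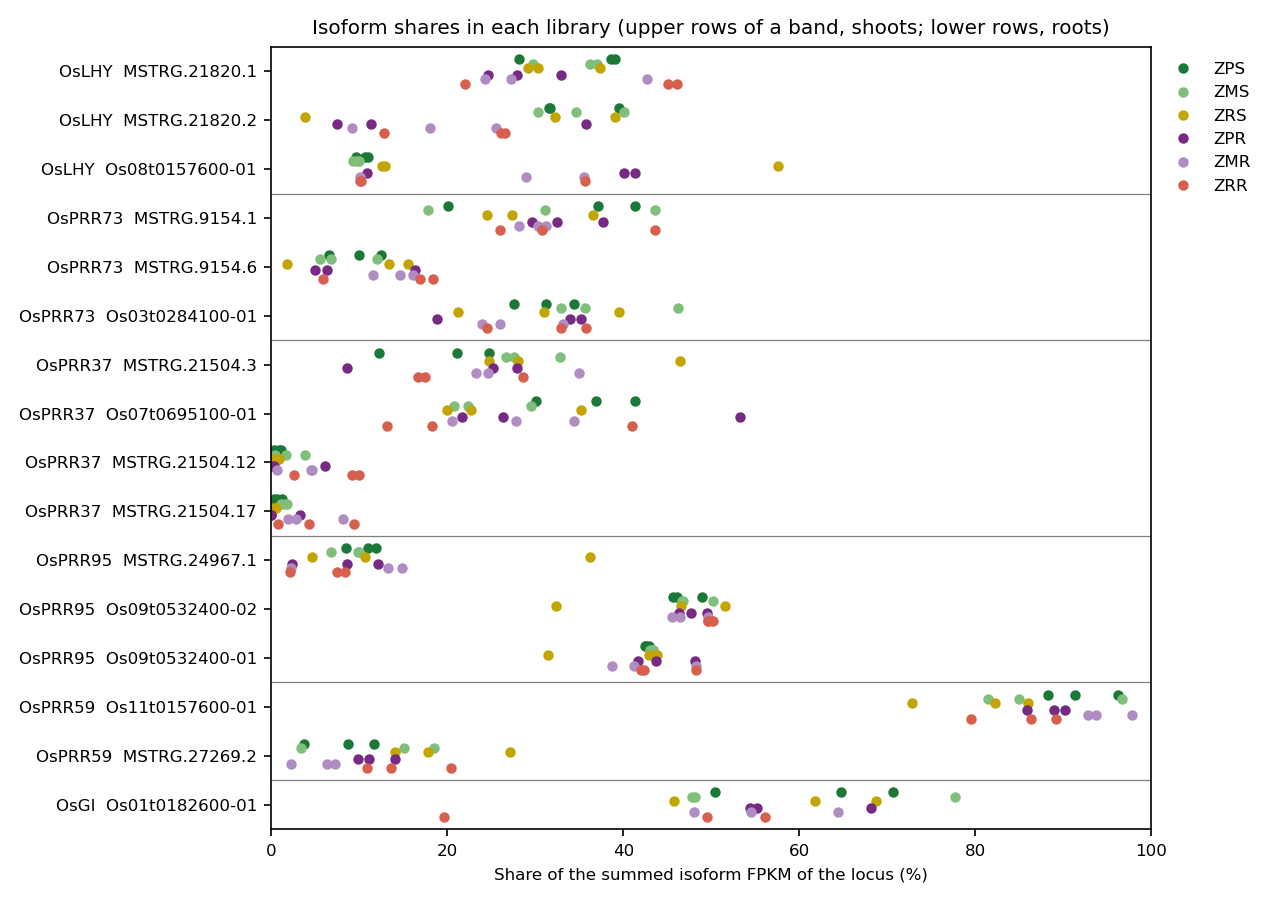
Share of each named isoform in the summed isoform FPKM of its locus (horizontal axis, in %) in the 18 libraries, coloured by group, with shoots in the upper and roots in the lower part of each band. Os08t0157600-01 of OsLHY splits into 12 libraries below 13% and 6 libraries above 28%, and MSTRG.24967.1 of OsPRR95 is at 36.2% in ZRS 3.

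How the genes varied within the groups was described by the deviation of each library from the mean of its group on the log2 scale, over 18 libraries and with no test. OsPRR59 and OsELF3 deviated together (r = 0.82), as did OsLHY and OsPRR95 (r = 0.79), OsPRR95 and OsELF3 (r = 0.76) and OsPRR73 and OsPRR37 (r = 0.62). OsPRR37 and OsELF3 went opposite ways (r = -0.57). Among 24430 other loci, OsPRR95 ranked 94 in likeness to OsLHY by these deviations. The points share their libraries, and so their depth and RNA quality.

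Part of this rested on ZRS 3, in which the median deviation of the 8 genes was 0.33 against -0.02 for all tested loci. Without ZRS 3, over 17 libraries, r was 0.77 for OsPRR59 and OsELF3, 0.62 for OsLHY and OsPRR95, 0.70 for OsPRR95 and OsELF3, 0.62 for OsPRR73 and OsPRR37 and -0.69 for OsPRR37 and OsELF3. For OsLHY and OsGI it fell from 0.67 to 0.37, and for OsPRR95 and OsGI from 0.64 to 0.28. OsELF3 and OsPRR59 both had their lowest deviation in ZRS 1, at -0.54 and -0.44. Their r without ZRS 1 was not computed.

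The replicate number moved with some of the genes. The libraries numbered 1 had the lowest OsELF3 and the lowest OsPRR59 in 5 of the 6 groups each, and the highest OsPRR1 in 3 of the 3 root groups. The libraries numbered 2 had the lowest OsPRR73 in 5 of 6 groups. In a comparison chosen after the data were seen, the replicates numbered 1 differed from the others by -0.40 for OsELF3 (limma adjusted p = 0.0368), -0.34 for OsPRR59 (limma adjusted p = 0.0191) and 0.36 for OsPRR73 (limma adjusted p = 0.0351). These 3 of 8 genes stand beside 23.3% of all tested loci that passed the adjusted p in the same comparison. The libraries numbered 1 also had the highest share of intronic, run-on and intergenic FPKM in 6 of 6 groups, and the part of this in the values of the genes was not tested. Without them, the counts of clock genes called in the 6 comparisons of zinc supply stayed at 0.

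**Figure D5:**
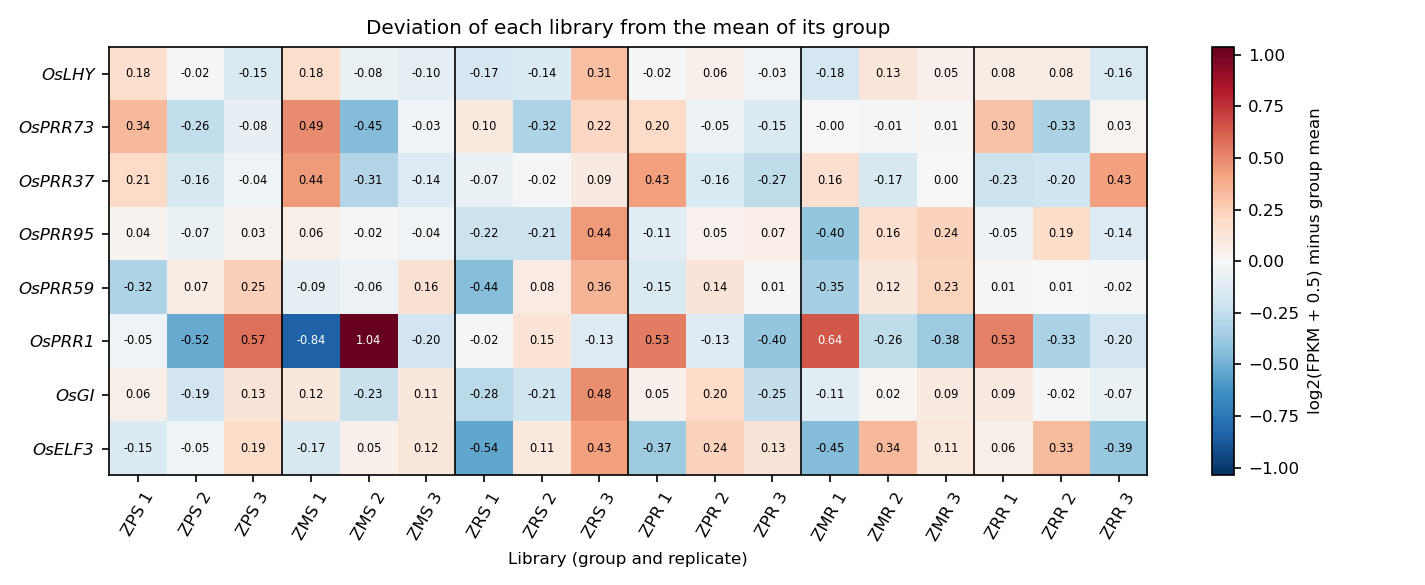
Deviation of each library (horizontal axis) from the mean of its group in log2(FPKM + 0.5), for the 8 clock genes, from blue (below) to red (above). ZRS 3 is above its group mean for 7 of the 8 genes, and the deviations of OsPRR1 reach from -0.84 (ZMS 1) to 1.04 (ZMS 2).

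Other genes of the clock, of light perception and of flowering were read from lists. Those named here were chosen after their values were seen, since none was called in a treatment comparison. Of 6 loci of the evening complex and its neighbours, 5 passed the filter in shoots and 4 in roots. None of those tested was called in a treatment comparison. OsELF3-2 (Os01g0566100), a second rice gene of the ELF3 type, was higher in roots at 7.46 ± 0.487 FPKM (SD, n = 9) against 2.56 ± 0.786 FPKM in shoots, opposite in direction to the values of OsELF3. It was called at every zinc supply, at 1.27, 1.31 and 1.67 (limma adjusted p = 0.000262, 0.000203 and 2.00e-05). OsLUX, named after the DNA-binding part of the Arabidopsis evening complex, was at no more than 0.189 FPKM in any library and was not tested.

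Of 7 photoreceptor and light signalling genes, none was called in a treatment comparison. The blue-light receptor gene OsCRY1b was lower in roots by -2.58, -2.23 and -2.70 at the 3 zinc supplies (limma adjusted p = 3.89e-08, 2.03e-07 and 2.83e-08), and OsCRY1a by -1.47, -1.51 and -1.85 (limma adjusted p = 8.91e-06, 7.03e-06 and 8.63e-07). The phytochrome gene OsPHYA was higher in roots, by 1.74, 1.68 and 2.42 (limma adjusted p = 8.82e-06, 1.32e-05 and 2.92e-07). OsPHYC was called lower in ZMR/ZMS alone, at -1.08 (limma adjusted p = 0.000229).

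Of 10 loci of photoperiodic flowering, 6 passed the filter in each tissue, and none of those tested was called in a treatment comparison. In the tissue comparisons OsMADS14 was called higher in roots at each zinc supply, at 2.06, 2.1 and 2.30 (limma adjusted p = 5.18e-07, 4.21e-07 and 1.74e-07), with a mean of 1.95 FPKM in roots. OsMADS51 was called higher in ZMR/ZMS and ZRR/ZRS, at 1.23 and 1.05, and Ghd7 was called lower in ZRR/ZRS, at -1.39. Ghd7 was close to the floor, with means over 9 libraries of 0.51 FPKM in shoots and 0.0047 FPKM in roots. Another list held 153 loci that the deposited annotation places in the KEGG pathway of plant circadian rhythm. It was not cleared of the loci of the lists above, and Hd6 of the flowering list was in it. Its counts are thus not independent of theirs. Of the 153 loci, 98 in shoots and 99 in roots passed the filter, and none was called in a treatment comparison. In the tissue comparisons 112 were tested, of which 25 were called higher and 17 lower in roots in ZPR/ZPS, 21 and 19 in ZMR/ZMS, and 25 and 21 in ZRR/ZRS. Of all tested loci, 20.5% were called higher and 13.5% lower in ZPR/ZPS, 18.5% and 13.4% in ZMR/ZMS, and 27.6% and 11.8% in ZRR/ZRS. Their median log2 fold changes were 0.12, 0.18 and 0.31, each below the median of all tested loci.

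Over the 18 libraries, the named loci whose log2 values ran most like those of each clock gene were found by Pearson's r among 24430 loci, as a description in which the split between shoots and roots has a large share. OsPRR95 was most like OsCRY1b (r = 0.9938), with Os03g0129300 close behind (r = 0.9932). OsELF3 was most like Os02g0771100, named OsCOP1 here (r = 0.936), with Os09g0327400 close behind (r = 0.931). OsLHY was most like Os12g0169400 (r = 0.99), OsPRR73 like Os02g0518000 (r = 0.98), OsPRR37 like Os09g0563800 (r = 0.97) and OsPRR59 like Os02g0771800 (r = 0.98). OsGI was most like Os09g0393200 (r = 0.92), and OsPRR1 had the loosest match, with Os01g0301000 (r = 0.83). Among the clock genes themselves, OsGI had OsPRR59 at rank 80 (r = 0.86), and OsLHY had OsPRR95 at rank 331 (r = 0.97).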

How the data were processed

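Locus and isoform FPKM of 18 libraries were deposited, with isoform coverage (reads per base) that, divided by FPKM, gave the depth. Per the labels and the methods, the authors computed FPKM from TopHat alignments to IRGSP-1.0 (up to 40 alignments and 2 mismatches per read) with Cufflinks. Locus FPKM equalled length-weighted isoform FPKM over a constant length, within 0.1% in 33018 of 33018 loci.

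For the tests, limma 3.58.1 (R 4.3.3; lmFit, eBayes with trend, Benjamini-Hochberg adjustment) was run on log2(FPKM + 0.5), with the 9 libraries of a tissue for zinc supply and all 18 for tissues, interactions and isoforms, over features with 0.5 FPKM in 3 libraries. The 8 genes, the lists and the tests were chosen with earlier results of these data known. By rule, the text named the 8 genes, their isoforms with an overall share of 10% or a call, the most similar RAP loci (3 were found for each gene and the nearest is printed), and listed loci called for zinc supply, of which there were none. Replicate numbers were taken to pair libraries where every same-numbered correlation of deviations was over 0.1, as in ZMS/ZPS (0.466, 0.172 and 0.177), ZRS/ZMS (0.356, 0.217 and 0.117) and ZMR/ZPR (0.389, 0.131 and 0.113), not in the other 6 comparisons. In no comparison did every library match best with its own number, so these are weak grounds for a pairing. The tests were tried on simulated data, in which random loci were changed and no other difference between groups was kept. The simulated ZPR/ZPS thus lacked the tissue differences of the data, where 34.1% of loci were called. A change of 1 lies at the fold threshold, so its estimate can fall short of a call whatever the spread. Of 50 loci given a log2 fold change of 1, 6 were recovered in ZMS/ZPS, 5 in ZMR/ZPR and 7 in ZPR/ZPS. Of 50 loci given a log2 fold change of 2, 30, 31 and 40 were recovered in the same order. Alternatives were other pseudocounts, filters and scalings, a replicate block, other variance models, and each library left out. Promoter and protein sequences were not used here.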

Additional observations from a re-analysis of the deposited data

How the results depend on the processing

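In the 6 comparisons of zinc supply, the count of clock genes called was 0 under every alternative tried, and 83 of 1008 single values changed sign without being called. With a replicate block, which rests on the replicate numbers alone, the counts were 0 of 8 in ZMS/ZPS, ZRS/ZMS and ZMR/ZPR. The block moved no count of called clock genes or isoforms in any comparison. For tissues, 9 calls were gained and 5 lost among 696 values, and 2 uncalled values changed sign, OsGI in ZRR/ZRS with upper-quartile scaling and OsPRR1 in ZMR/ZMS without the replicates numbered 1, both to -0.02. The counts of clock genes called ran from 4 to 4 in ZPR/ZPS, from 2 to 5 in ZMR/ZMS and from 3 to 4 in ZRR/ZRS with 1 library left out, the 5 being without ZMS 2. With upper-quartile scaling 5 were called in ZRR/ZRS. The calls of isoforms were less stable. With a pseudocount of 1 there were 3 in ZPR/ZPS and 1 in ZMR/ZMS. In ZRR/ZRS there were 0 with a pseudocount of 0.1 and 0 with a filter at 1 FPKM. With 1 library left out the isoform counts ran from 0 to 1 in ZPR/ZPS, the 1 being without ZPR 1, and from 0 to 2 in ZRR/ZRS. The cause of these changes was not tested. Leaving out all replicates numbered 1, an alternative chosen after seeing the data, took OsPRR73 in ZMR/ZMS to -0.77. The intervals of OsPRR1 were the widest, and a change within them cannot be told from none.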
